A study of Mus musculus with 4 samples.

Results

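The expression of 10 signal-responsive genes was compared between control and cKO B cells that had been stimulated with LPS. The genes were Egr1, Egr2, Egr3, Nr4a1, Dusp1, Dusp2, Dusp4, Dusp5, Dusp6 and Dusp10. They were selected by symbol from a fixed list. All 10 were found among the 30041 genes listed in each sample. Of these 10, 8 reached a score of 0.005 in at least 1 sample and entered the test across 9727 genes, whereas Dusp1 and Dusp5 did not reach it.

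EGR1, EGR2 and EGR3 are zinc finger transcription factors, and NR4A1 (Nur77) is an orphan nuclear receptor. Their genes are immediate early genes, which are transcribed within minutes of antigen receptor, Toll-like receptor or growth factor signaling, and in lymphocytes Nr4a1 and the EGR genes are widely used as readouts of antigen receptor signaling. The DUSP genes encode dual specificity phosphatases that remove phosphates from the activated MAP kinases ERK, JNK and p38, and most of them are themselves induced by the kinases that they inactivate.

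RNA was obtained from splenic B cells of C57BL/6 mice after 72 h of culture with LPS, a ligand of Toll-like receptor 4, and was measured in 2 control and 2 cKO samples. Control mice carried 1 floxed and 1 deleted Nfkbiz allele (Nfkbiz fl/Δ). The cKO mice carried the same alleles plus Cre recombinase expressed from the Cd79a locus (Nfkbiz fl/Δ Mb1 cre/+), which removes the floxed allele in B lineage cells. Nfkbiz encodes IκB-ζ, a nuclear IκB protein. Both groups therefore lacked 1 Nfkbiz allele, only the cKO group carried Cre, and neither unstimulated cells nor earlier time points were analysed here. The B cells had been enriched by depletion of cells bearing CD43, CD4 or Ter-119. The labels give the LPS dose as 20 mg/ml and the methods give the same figure in μg/ml, and they do not say whether the samples came from separate mice. The p-values therefore measure only the spread between these samples.

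The level of each gene is a score that has no stated unit but behaves as a value per exon length and library size. The scores summed to between 604 and 638 in the 4 samples, and the steps between low scores corresponded to about 17500000 to 19900000 reads a sample, which is an inference from the values. The targeted gene, Nfkbiz, had scores of 0.0241 and 0.0226 in control and 0.0127 and 0.0116 in cKO samples, a log2 difference of -0.94 ± 0.0956 (SE) with a limma adjusted p of 0.0282. The labels thus matched the targeted gene. Of the 7 B cell markers tested, 1 fell (Cd79a, whose locus carries the Cre in cKO mice), and the summed score of the 7 was 2.39 and 2.68 in control and 2.33 and 2.31 in cKO samples. Of the 6 plasma cell markers tested, 1 fell (Prdm1), and their sum was 0.340 and 0.291 in control and 0.331 and 0.277 in cKO samples. The other markers of this list did not pass the test, and 4 of the 6 had positive differences, among them Sdc1 (1.70-fold, limma adjusted p = 0.116) and Slamf7 (1.78-fold, adjusted p = 0.0793). Besides Prdm1, Igj had a negative difference (0.550-fold, limma adjusted p = 0.130), with scores of 0.134 and 0.0783 in control and 0.0552 and 0.0572 in cKO samples. Sdc1 reached the filter of 0.005 only in the cKO samples, and Prdm1 reached it only in control 1. The calls of Nfkbiz, Cd79a and Prdm1 were each lost with no filter, with no variance trend, without cKO 1 and without cKO 2 (adjusted p of 0.0509 to 0.203 for Nfkbiz), and that of Prdm1 also with quantile normalization and without control 1. In these bulk samples, fewer cells of a type and less RNA per cell cannot be told apart.

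No member passed the test in either direction. In the limma fit, 0 of the 8 members were lower in cKO B cells at an adjusted p under 0.05, where 122 of all 9727 genes (1.25%) were, and 0 of 8 were higher, where 79 (0.812%) were. At an unadjusted p under 0.05, 2 members, Egr1 and Egr2, were higher, against a background of 10.8% of all genes, and 0 were lower, against 11.5%. The sign of the difference was positive in 6 of the 8 tested members and negative in Dusp4 and Dusp10. The median log2 difference of the 8 was 0.25, and that of all 9727 genes was -0.01 with quartiles of -0.16 and 0.14. The smallest two-sided p of an exact permutation test with 2 samples a group is 0.333.

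**Figure D1:**
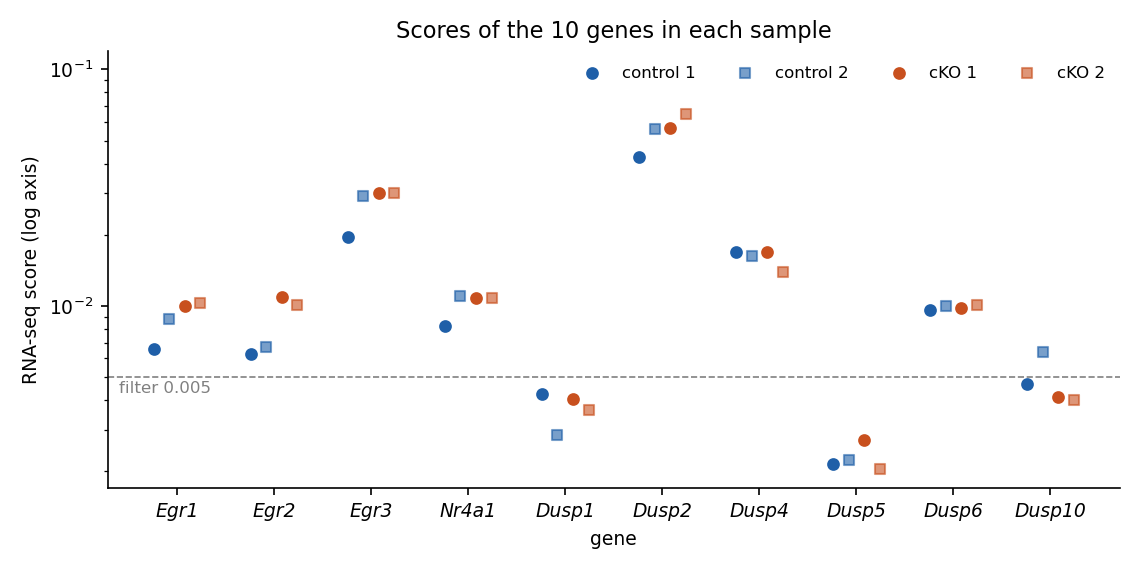
Score of each of the 10 genes (log axis) in control 1, control 2, cKO 1 and cKO 2, 1 point a sample, with the filter of 0.005 as a dashed line. Both cKO points lie above both control points in Egr1, Egr2, Egr3 and Dusp2, and below them in Dusp10. Control 1 is the lowest point in Egr1, Egr2, Egr3, Nr4a1, Dusp2 and Dusp6.

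The genes were expressed at unequal levels. On the score, which allows genes to be compared per length, Dusp2 was the highest in both groups, with a mean of 0.0493 ± 0.00952 (SD, n = 2) in control and 0.0607 ± 0.00612 in cKO samples. Its mean score over the 4 samples was above that of 84.0% of the genes tested. Egr3 followed, 2.02-fold below Dusp2 in both groups, and then Dusp4. From Dusp6 down to Dusp10, which also took in Nr4a1, Egr1 and Egr2, the control scores of neighbors in the order overlapped. The order of neighbors is therefore not resolved, although Dusp6 lay wholly above Egr1, Egr2 and Dusp10, and Nr4a1 above Egr2 and Dusp10. Dusp1 and Dusp5 were the lowest, and their control scores overlapped neither with each other nor with those of Dusp10. In cKO samples the 3 highest genes stood in the same order, and Nr4a1, Egr2, Egr1 and Dusp6 lay between 0.00982 and 0.0109 with overlapping scores. Dusp10 lay 2.46-fold below Dusp6 there and overlapped with Dusp1.

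Egr2, the EGR gene known for its roles in restraining lymphocyte activation and in hindbrain and Schwann cell development, had the largest positive difference of the 8 members tested. It lies on chr10:66998223-67004936 (plus strand) of NCBIM37, the assembly also called mm9. Its score was 0.00623 in control 1, 0.00673 in control 2, 0.0109 in cKO 1 and 0.0101 in cKO 2. The lowest cKO score was above the highest control score, and the samples of each group lay close together, with control 2 at 1.08 times control 1. The mean score was 0.00648 ± 0.000354 (SD, n = 2) in control and 0.0105 ± 0.000594 in cKO samples. The cKO level was 1.61-fold that of control (95% interval 1.32 to 1.96), a log2 difference of 0.69 ± 0.117 (SE), with an unadjusted p of 0.00123 and a limma adjusted p of 0.0535. The adjusted p thus missed the threshold of 0.05. Over all alternatives and single-sample omissions it ranged from 0.0342 to 0.334. It was 0.0486 in the fit that blocked on the replicate number, although nothing says that same-numbered samples belong together. It was 0.0649 with no variance trend and 0.212 with no filter. The log2 difference stayed between 0.63 and 0.74 when any 1 sample was left out.

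The DNA before the start site of Egr2 is shown because it holds elements through which MAP kinase signals are known to reach immediate early genes. These are the CArG box, to which serum response factor (SRF) binds together with ternary complex factors phosphorylated by ERK, and the cAMP response element, to which CREB binds. That of Dusp5, an ERK phosphatase gene, is set beside it because it holds the same kinds of match, while the scores of Dusp5 overlapped between the groups. The windows run from 250 to 51 bases before the start, 5′ to 3′ on the gene's strand, from the RefSeq table on GRCm38.p6. Capitals mark matches to the CArG box and to TGACG, the core of the cAMP response element, on either strand.
Egr2, chr10:67537619-67537818, plus strand: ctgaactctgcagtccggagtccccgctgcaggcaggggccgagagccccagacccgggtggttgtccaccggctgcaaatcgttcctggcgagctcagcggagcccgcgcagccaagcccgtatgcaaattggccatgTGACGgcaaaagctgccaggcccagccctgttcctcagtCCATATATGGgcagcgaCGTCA
Dusp5, chr19:53528895-53529094, plus strand: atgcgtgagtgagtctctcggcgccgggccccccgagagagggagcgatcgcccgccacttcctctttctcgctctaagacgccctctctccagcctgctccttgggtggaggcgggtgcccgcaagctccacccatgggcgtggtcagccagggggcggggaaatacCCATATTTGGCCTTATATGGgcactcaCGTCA

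Egr2 held 1 CArG box, from 72 to 63 bases before the start, and 2 TGACG cores. Of its 5 starts in the RefSeq table, only the third in genome order was used, and matches before its other starts were not listed. Dusp5 held 2 adjoining CArG boxes, from 82 to 63 bases before the start, and 1 TGACG core at the same distance from the start as the second core of Egr2, 55 to 51 bases. A CArG box stood in 1.47% of all 32851 RefSeq windows of 250 bases before a start, and a TGACG core in 17.8%. A match describes the letters and not the binding of a factor.

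Egr1, the prototype of the family and a classical ERK target, differed in the same direction by a smaller amount. It lies on chr18:35020861-35024638 (plus strand) of NCBIM37. The score was 0.00656 in control 1, 0.00884 in control 2, 0.0100 in cKO 1 and 0.0103 in cKO 2. Both cKO samples were above both control samples, and the control samples lay farther apart than the cKO samples, with control 2 at 1.35 times control 1. The difference was 1.33-fold (95% interval 1.01 to 1.76, log2 difference 0.41 ± 0.162), with an unadjusted p of 0.0454 and a limma adjusted p of 0.216. Without control 2, the log2 difference was 0.62 with an adjusted p of 0.0486, and without control 1 it was 0.20. About 363 to 619 reads, by the inferred depth, stood behind each score, for a counting error of 4.02 to 5.25%. The antisense gene Gm17507 overlaps 200 exon bases of Egr1, and since the strand setting of the counting is not given in the sources used here, its reads could not be told apart there.

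Egr3, which acts with Egr2 in lymphocytes and is a target of calcineurin and NFAT signaling, was the highest of the EGR genes in each sample. It lies on chr14:70477252-70479964 (plus strand). The score was 0.0196 in control 1, 0.0292 in control 2 and 0.0301 in each cKO sample. Both cKO samples were above control 2 by a small margin, and control 1 stood apart from the other 3 samples. Control 2 was 1.49 times control 1, a gap on the log2 scale that 4.53% of all genes tested exceeded. The log2 difference between the groups was 0.33 ± 0.185 (SE), with a limma adjusted p of 0.344. It was 0.04 (adjusted p = 0.889) without control 1 and was 0.62 (adjusted p = 0.0228) without control 2, so that the value rested on which control sample was used.

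Relative to the other EGR genes of the same sample, the Egr2 level differed as follows. The ratio of Egr2 to Egr3 scores was 0.318 and 0.231 in control and 0.362 and 0.335 in cKO samples, and that of Egr2 to Egr1 was 0.950 and 0.761 in control and 1.09 and 0.976 in cKO samples. In both ratios the cKO samples were above the control samples. For Egr2 to Egr1 the margin was small, with 0.976 in cKO 2 and 0.950 in control 1. The counting errors of Egr1 and Egr2 were 3.68 to 5.25% a sample. The ratio of Egr1 to Egr3 was 0.335 and 0.303 in control and 0.333 and 0.343 in cKO samples, and here the groups overlapped.

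Nr4a1, which encodes Nur77 and lies on chr15:101097277-101105223 (plus strand), had scores of 0.00821 in control 1, 0.0110 in control 2 and 0.0108 in each cKO sample. Control 2 was the highest and control 1 the lowest of the 4 samples, so that the groups overlapped. The log2 difference was 0.18 ± 0.155 (SE), with a limma adjusted p of 0.511, and the 95% interval of the difference ran from -0.20 to 0.56. Without control 1 the difference was -0.02.

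**Figure D2:**
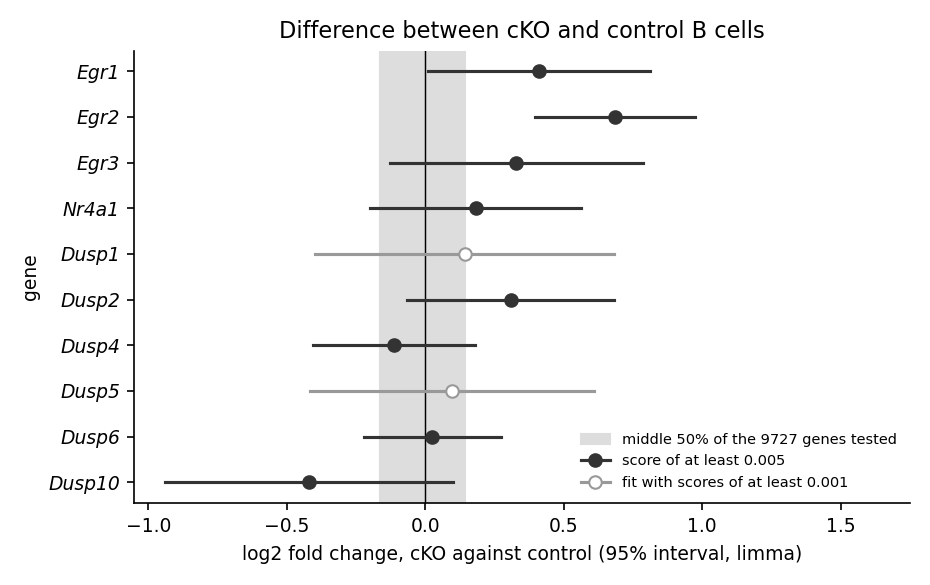
Log2 difference of cKO against control with its 95% interval from limma for the 10 genes, with filled points for the 8 genes of the test across 9727 genes, open points for Dusp1 and Dusp5 from the fit with a filter of 0.001, and the middle 50% of all genes tested as a gray band. The intervals of Egr1 and Egr2 exclude 0, and that of Egr2 (0.40 to 0.97) lies wholly above the gray band.

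The nuclear, inducible phosphatases are encoded by Dusp1, Dusp2, Dusp4 and Dusp5. Dusp2 encodes PAC-1, a phosphatase of activated lymphocytes, and lies on chr2:127161895-127164112 (plus strand) of NCBIM37. Its score was 0.0426 in control 1, 0.0560 in control 2, 0.0564 in cKO 1 and 0.0650 in cKO 2. Both cKO samples were above both control samples, although cKO 1 exceeded control 2 by little and control 2 was 1.32 times control 1. The cKO level was 1.24-fold that of control (95% interval 0.956 to 1.61, limma adjusted p = 0.292). The log2 difference of 0.31 ranged from 0.11 without control 1 to 0.51 without control 2, with an adjusted p of 0.0514 in the latter case.

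Dusp4, which encodes MKP-2, a phosphatase of ERK and JNK, lies on chr8:35870351-35882948 (plus strand). Its score was 0.0169 in control 1, 0.0163 in control 2, 0.0170 in cKO 1 and 0.0139 in cKO 2. The score of cKO 2 was the lowest and that of cKO 1 the highest, with both control samples between them. The log2 difference was -0.11 ± 0.119 (SE) with a limma adjusted p of 0.596, and it was 0.03 without cKO 2. The ratio of Dusp2 to Dusp4 scores within a sample was 2.52 and 3.43 in control and 3.32 and 4.68 in cKO samples, which overlapped between the groups.

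Dusp1, which encodes MKP-1, a phosphatase of p38 and JNK that limits the inflammatory response to LPS, lies on chr17:26642535-26645464 (minus strand). Its score was 0.00422 in control 1, 0.00284 in control 2, 0.00404 in cKO 1 and 0.00364 in cKO 2. Both cKO samples lay between the control samples. Dusp1 was the only member other than Dusp4 in which control 2 was below control 1, at 0.673 times its score. Dusp5, an ERK phosphatase on chr19:53603599-53616921 (plus strand), had scores of 0.00215 and 0.00224 in control and 0.00270 and 0.00205 in cKO samples. Both control samples lay between the cKO samples. In a fit with a filter of 0.001, which tested 13229 genes, the log2 difference was 0.14 ± 0.218 (SE) for Dusp1 and 0.10 ± 0.206 for Dusp5, with limma adjusted p of 0.741 and 0.817. By the inferred depth, about 140 to 217 reads stood behind the Dusp1 scores and about 88.8 to 133 behind those of Dusp5, so that their counting error was 6.79 to 10.6% a sample.

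Dusp6 encodes MKP-3, a cytoplasmic phosphatase that acts on ERK and is itself induced by ERK signaling. It lies on chr10:98725865-98730122 (plus strand). Its score was 0.00957 in control 1, 0.0100 in control 2, 0.00982 in cKO 1 and 0.0101 in cKO 2. The 4 samples lay close together and the groups overlapped. The cKO level was 1.02-fold that of control, and the 95% interval of this fold ran from 0.858 to 1.21 (limma adjusted p = 0.894). The interval of Dusp6, 0.27 at its upper end on the log2 scale, did not reach the lower end of that of Egr2, 0.40. No test of the difference between the genes was made.

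Dusp10 encodes MKP-5, a phosphatase of JNK and p38, and lies on chr1:185837181-185899515 (plus strand). Its score was 0.00466 in control 1, 0.00638 in control 2, 0.00410 in cKO 1 and 0.00400 in cKO 2. Both cKO samples were below both control samples, and the gap between the control samples (1.37-fold) was larger than that between the nearest samples of the groups. The cKO level was 0.747 times that of control (95% interval 0.521 to 1.07, limma adjusted p = 0.299). The log2 difference of -0.42 ranged from -0.64 to -0.20 when any 1 sample was left out. Dusp10 entered the test only through control 2, whose score alone passed the filter of 0.005. The ratio of Egr2 to Dusp10 scores was 1.34 and 1.05 in control and 2.66 and 2.52 in cKO samples, and that of Dusp6 to Dusp10 was 2.05 and 1.57 in control and 2.40 and 2.53 in cKO samples. Egr2 had the largest positive and Dusp10 the most negative difference of the members tested. The separation of their ratio follows from these differences and is no further evidence. The antisense transcript 1700056E22Rik lies within Dusp10 but overlaps no exon of it.

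Of the 8 members tested, 4 (Egr1, Egr2, Egr3 and Dusp2) had both cKO scores above both control scores, against 28.1% of all genes, and 1 (Dusp10) had both below, against 30.1%. The separation was by more than the control gap in Egr2, as the values above show, but not in Egr1, Egr3 or Dusp2. Control 1 was the lowest of the 4 samples in 6 of the 8 members (Egr1, Egr2, Egr3, Nr4a1, Dusp2 and Dusp6), against 33.9% of all genes. Control 2 was above control 1 in 7 of 8 tested members, and in 5 of them by more than 1.3-fold. The shares of all genes were not computed for these counts. The median log2 gap of control 2 over control 1 was 0.40 over the 8 members and 0.01 over all genes. With control 1 left out, the log2 difference was 0.63 for Egr2, 0.20 for Egr1, 0.11 for Dusp2, 0.04 for Egr3 and -0.02 for Nr4a1.

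**Figure D3:**
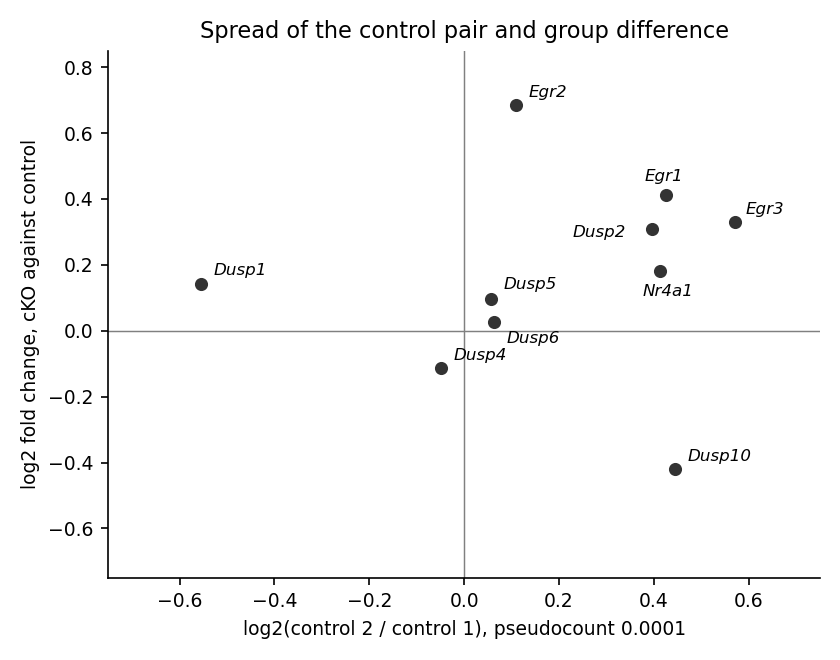
Log2 difference of cKO against control (vertical axis) against the log2 gap of control 2 over control 1 (horizontal axis, pseudocount 0.0001) for the 10 genes, 1 point a gene. Egr2 combines the largest positive group difference (0.69) with a control gap of 0.11, whereas Egr1, Egr3, Nr4a1, Dusp2 and Dusp10 have control gaps from 0.40 to 0.57.

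Promoter windows of 3 further members are shown because they hold the other kinds of match, an EGR site or a full cAMP response element. The EGR site was searched as GCGGGGGCG or GCGTGGGCG, and the full cAMP response element as TGACGTCA, which contains the TGACG core on both strands. The range, build and capitals are as for Egr2, with the EGR site and the full element in capitals too.
Nr4a1, chr15:101266596-101266795, plus strand: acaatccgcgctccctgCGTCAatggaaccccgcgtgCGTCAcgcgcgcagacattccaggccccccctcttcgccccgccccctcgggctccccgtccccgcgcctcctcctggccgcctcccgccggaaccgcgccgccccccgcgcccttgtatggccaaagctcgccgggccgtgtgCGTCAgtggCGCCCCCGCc
Dusp1, chr17:26508523-26508722, minus strand: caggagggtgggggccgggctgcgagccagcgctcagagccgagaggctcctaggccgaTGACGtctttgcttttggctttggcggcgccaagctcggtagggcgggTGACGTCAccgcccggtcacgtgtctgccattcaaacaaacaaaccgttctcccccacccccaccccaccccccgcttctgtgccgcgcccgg
Dusp2, chr2:127335909-127336108, plus strand: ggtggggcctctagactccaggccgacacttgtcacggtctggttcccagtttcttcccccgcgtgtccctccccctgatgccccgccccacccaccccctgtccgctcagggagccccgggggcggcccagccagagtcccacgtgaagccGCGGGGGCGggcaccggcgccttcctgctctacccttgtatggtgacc

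Nr4a1 held an EGR site on the opposite strand, from 60 to 52 bases before the start, and 4 TGACG cores, of which the one nearest to the start lies outside the window printed. Dusp2 held an EGR site from 98 to 90 bases before the start. Dusp1 held the full cAMP response element, from 143 to 136 bases before the start, and a further TGACG core. An EGR site stood in 3.06% of all windows and the full element in 1.55%. Matches were also searched for NBRE, the NR4A element AAAGGTCA (in 1.34% of all windows), the TATA box as TATAAA (12.4%), the AP-1 site as TGACTCA or TGAGTCA (4.46%) and the NF-kB site (7.25%), and none of the 7 members in the table held one. Dusp6 and Dusp10 held no match to any of the 8 motifs in the 250 bases. Egr1, Egr3 and Dusp4 have no entry in the table. The members with a CArG box, Egr2 and Dusp5, had log2 differences of 0.69 and 0.10, and those with an EGR site, Nr4a1 and Dusp2, of 0.18 and 0.31.

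**Figure D4:**
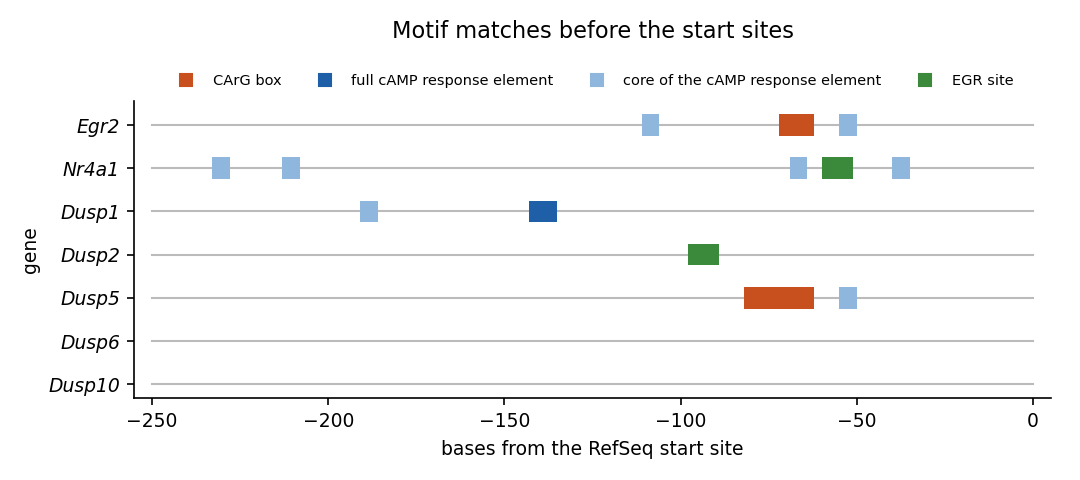
Positions of motif matches on either strand in the 250 bases before the RefSeq start site (position 0) of the 7 members in the table, with a CArG box in orange, the full cAMP response element in dark blue, its core in light blue and an EGR site in green. The CArG boxes of Egr2 and Dusp5 end at the same distance from the start, and the lines of Dusp6 and Dusp10 are empty.

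The relatives of the members differed as follows, with all genes of these short lists given. Nr4a2 and Nr4a3, the other NR4A receptors, were under the filter of 0.005. Nr4a2 had scores of 0.00086 and 0.00151 in control and 0.00301 and 0.00210 in cKO samples, and Nr4a3 had 0.00165 and 0.00273 in control and 0.00472 and 0.00396 in cKO samples. In both genes the cKO samples were above the control samples. In the fit with a filter of 0.001, in which 0.476% of the genes passed the threshold as higher and 0.847% as lower, the log2 difference was 1.07 ± 0.333 (SE) for Nr4a2 and 0.99 ± 0.264 for Nr4a3, with limma adjusted p of 0.174 and 0.136. Nab2, a co-repressor that binds EGR proteins and is itself an EGR target, had scores of 0.0205 and 0.0252 in control and 0.0343 and 0.0305 in cKO samples, with both cKO samples above the control samples (log2 difference 0.51, limma adjusted p = 0.116). Nab1, the other co-repressor, had scores of 0.0270 and 0.0281 in control and 0.0257 and 0.0249 in cKO samples. Both cKO samples were below the control samples (log2 difference -0.12, limma adjusted p = 0.426). Egr4 was listed at 0 in 3 samples and at 0.00003 in cKO 2. Among the other typical MAPK phosphatases, the log2 difference was -0.29 for Dusp7, an ERK phosphatase (limma adjusted p = 0.138). It was 0.22 for Dusp16, a JNK phosphatase (adjusted p = 0.423), whereas no score of Dusp8 or Dusp9 was above 0.0004. Dusp7 had scores of 0.0184 and 0.0183 in control and 0.0152 and 0.0148 in cKO samples. Both cKO samples were thus below the control samples in Dusp7, and both were above them in Dusp16. Of all 9727 genes tested, 28.1% had both cKO scores above both control scores and 30.1% had both below. None of these relatives passed the test.

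The kinases and transcription factors upstream of the members were taken from fixed lists. No gene passed the test among the 16 tested of the RAS and ERK cascade, whose log2 differences ran from -0.37 to 0.31 with a median of 0.03. None of the 13 tested of 16 genes of the JNK and p38 cascades passed it either, with a median of 0.06, and Mapk13 was listed at 0 in all samples. SRF and its partners, 6 genes, had a median of 0.00 and none passed. In the calcineurin and NFAT list, 1 of 11 genes passed the test and the median was -0.07. That gene was Nfatc1, which encodes an NFAT transcription factor. Its score was 0.0399 and 0.0474 in control and 0.0808 and 0.0766 in cKO samples. It rose 1.81-fold, a log2 difference of 0.85 ± 0.109 (SE), with a limma adjusted p of 0.0331, where 0.812% of all genes were higher past the threshold. The call was lost with no filter (adjusted p = 0.204), with no variance trend (0.0639), without cKO 1 (0.196) and without cKO 2 (0.0995), and the log2 difference was 0.73 to 0.98 when any 1 sample was left out.

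The genes beside and downstream of the members gave no further call. Of the 10 ERK feedback inhibitors, 2 were tested and 0 passed. Of the 20 other immediate early genes, 14 were tested, 0 passed, and their median log2 difference was 0.14, between -0.42 and 0.66. Control 1 was the lowest of the 4 samples in 10 of these 14, against 33.9% of all genes. Of the 11 atypical dual specificity phosphatases, which lack the MAP kinase docking domain, 7 were tested, 0 passed, and their median was 0.04, between -0.65 and 0.41. Fos, whose transcript is short-lived after stimulation, had scores of at most 0.00045 in the 4 samples.

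**Figure D5:**
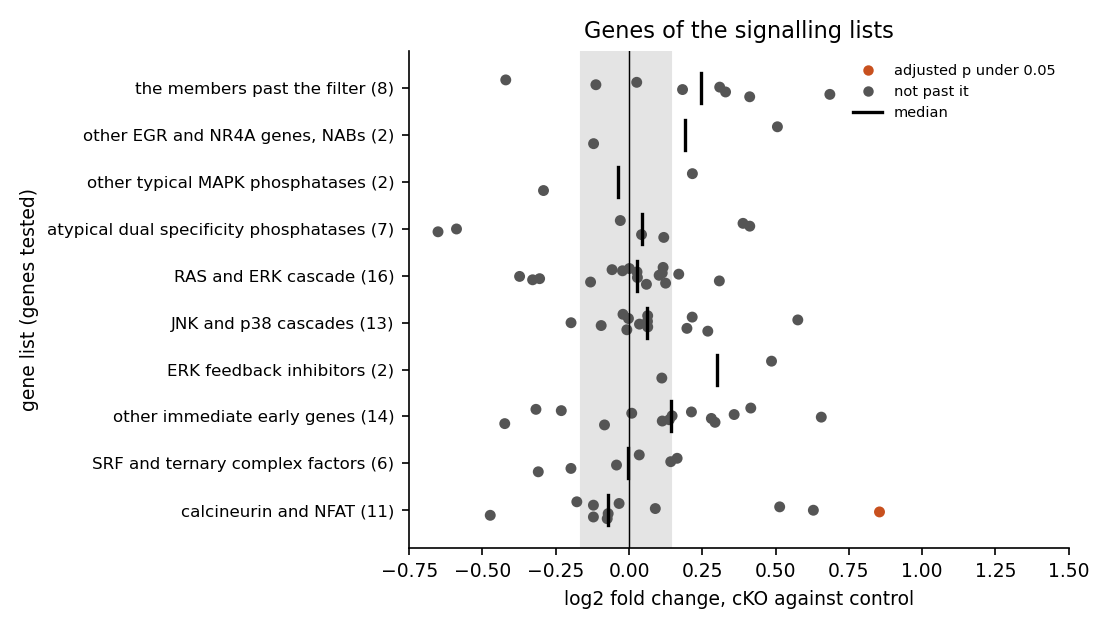
Log2 difference of cKO against control for the 8 tested members and for the tested genes of 9 lists of related signaling genes, 1 point a gene, with a bar at each list's median and the middle 50% of all 9727 genes as a gray band. The 1 orange point is Nfatc1 (0.85), the only gene of these lists past an adjusted p of 0.05.

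Markers of other cell types did not all stay level between the groups. The summed score of 9 T cell markers was 0.0356 and 0.0474 in control and 0.0752 and 0.0683 in cKO samples, most of it from Lck, and no score of Cd3d, Cd3e or Cd3g was above 0.0006. The summed score of 13 myeloid markers was 0.202 and 0.192 in control and 0.235 and 0.231 in cKO samples, most of it from Itgam, with 0 of 6 tested genes past the threshold and S100a9 and Ctsg at 0 in all samples. The log2 differences of these 6 ran from -0.82 for Fcgr3 to 1.46 for Lyz1, with 5 of 6 positive. Lyz1 reached the filter only in the cKO samples. For 7 NK cell markers, with Gzma at 0 in all samples, the sum was 0.00118 and 0.00135 in control and 0.00275 and 0.00205 in cKO samples. For 6 erythroid markers it was 0.0134 in control 1 and between 0.00218 and 0.00263 in the other samples. Of 8 heat shock genes, 5 were tested and 0 passed, with a sum of 1.74 and 1.62 in control and 1.40 and 1.53 in cKO samples. Their log2 differences ran from -0.38 to 0.62, with 3 negative and 2 positive. The stress-inducible Hspa1a, under the filter and named for its values, had scores of 0.00086 and 0.00169 in control and 0.00484 and 0.00260 in cKO samples. The order of the samples was that of Egr2, and Nab2, Nfatc1 and Lck shared it. Of the other heat shock genes, Hspa1b and Hsph1 had this order, and Dnajb1, Hspa8, Hsp90aa1, Hspb1 and Hspe1 did not. The share of all genes with this order was not computed. The part of these cells and of handling in the values of Egr2 and the other members was not tested.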

How the data were processed

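RNA-seq was measured in 2 control and 2 cKO samples, grouped by their labels. The authors mapped reads of 38 bp to mm9 with TopHat (TopHat2 2.0 in the submitters' processing notes, which also name CASAVA 1.8, Bowtie, SAMtools and bedtools), kept reads with a Phred score of at least 25, removed rRNA and tRNA reads and deposited a score for each gene. The step that makes the deposited score, its unit and its strand setting are not given in the sources used here. Low scores multiplied by exon length fell on multiples of a step (75.4 to 81.9% within 0.2 of a whole number), from which the depth was inferred. That step divided by a whole number would align as well, which would mean more reads, and counting errors cover counting only.

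From the scores, a linear model was fitted with limma 3.58.1 (lmFit, then eBayes with a variance trend, in R 4.3.3) to log2(score + 0.0001) for genes that reached a score of 0.005 in any sample, with Benjamini-Hochberg adjustment over all 9727 genes and a threshold of 0.05. Fold changes are on this scale, so that those of low genes are understated. Dusp1, Dusp5, Nr4a2 and Nr4a3 were fitted with a filter of 0.001. Intervals are 95% intervals of limma. Tables were made with Python 3.11.15 and pandas 2.3.3. Genes were placed on NCBIM37 with GENCODE, and promoter windows came from the RefSeq table of GRCm38.p6, which held 7 of the 10 members. Coordinates were not converted.

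Named are all members, the genes of each list past the threshold, Nfkbiz, and, chosen after their values were seen, the genes of the 2 lists of close relatives, Fos and the markers given. A gene among the other markers is not reported here by name. Members and lists were chosen with earlier results of these data known. Same-numbered samples correlated at -0.145 (Spearman -0.291) in their deviations from the group means, and nothing says that they were cultured together, so the samples were not paired. Filters, pseudocount, variance trend, scaling, the replicate block and each sample's omission were varied.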

Additional observations from a re-analysis of the deposited data

How the results depend on the processing

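Of 111 alternative values for single members, 101 kept their direction and, where an adjusted p was computed, their side of the threshold. For Dusp1 and Dusp5 no adjusted p was computed with the other pseudocount or with a sample left out. The other filters, the fit with no variance trend, the replicate block and the crossed block leave the log2 difference as it is. The direction could not change under them, and only the adjusted p could move. Of the values outside the 101, some passed the threshold, among them Egr2 with the replicate block and with the crossed block. A further 5 changed sign, all of them when 1 sample was left out. The log2 difference of Nr4a1 was -0.0237 and that of Dusp6 -0.0052 without control 1, that of Dusp1 -0.135 without control 2, that of Dusp4 0.0301 without cKO 2 and that of Dusp5 -0.0939 without cKO 1. Over the omissions they reached 0.389 for Nr4a1, 0.0576 for Dusp6, 0.421 for Dusp1, -0.256 for Dusp4 and 0.287 for Dusp5. The count of members higher was 1 (Egr2) with the replicate block and 1 with the crossed block, and 0 to 3 when 1 sample was left out, with 3 without control 2. The count of members lower stayed 0 under each alternative run.

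Over all genes, the count lower was 122 as reported, 0 with no filter (1538 at an unadjusted p under 0.05), 22 with no variance trend, 230 with the crossed block and 0 to 391 when 1 sample was left out. The count higher was 79 as reported, 35 with a filter above 0.05, 0 with no filter (1665 unadjusted), 11 with no variance trend, 177 with the replicate block, 212 with the crossed block and 0 to 439 when 1 sample was left out. Both counts were 0 in limma without cKO 1 and without cKO 2, where 519 and 982 genes were lower and 428 and 767 higher at an unadjusted p under 0.05, and highest without control 2. A fit without 1 sample assumes that the lone sample varies like the other group. The crossed pairing (control 1 with cKO 2) was chosen after seeing the data. Single calls near the threshold, that of Egr2 included, therefore rest on the fit used. The cause was not tested.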
